A study of Homo sapiens with 4 samples.

Results

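Metallothioneins are small, cysteine-rich proteins that bind zinc and copper and buffer the free zinc of a cell. MTF1, a zinc finger transcription factor that senses free zinc, binds metal response elements and switches on metallothionein genes and the exporter gene SLC30A1. Zinc enters the cytosol through transporters of the SLC39 family and leaves it through those of the SLC30 family. The genes described here are 7 metallothionein genes (MT1E, MT1F, MT1G, MT1H, MT1M, MT1X and MT2A), MTF1, SLC30A1 and SLC39A10, which makes 10 of the 43450 gene IDs in the deposited table. They were chosen by symbol with the knockdown-to-control values of these same libraries in view. Their differences are therefore given as descriptions, and counts of members from the fit over all genes stand only beside the share of all genes.

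The study read polyadenylated RNA of BLaER1 cells, a line from a human B cell leukaemia with an inducible C/EBPα transgene that can be turned into macrophage-like cells. The HAL7 knockdown group has 2 libraries and the control group has 2 libraries, numbered replicate 0 and replicate 1 in each. Per the labels, 3 LNA GapmeRs, antisense oligonucleotides that direct RNase H to their target, were added to the medium against HAL7, a long non-coding RNA. The sources used here do not give what the control cells received, the exposure time, any induction of the transgene or whether replicates are separate cultures. Any p-value given for other genes thus speaks only of the spread among 4 libraries, and that spread may be technical. Values are FPKM, fragment counts scaled to transcript length and library depth. HAL7 itself stood at 0.475 and 0.347 FPKM in knockdown libraries, against 0.726 and 0.613 FPKM in control libraries, a ratio of means of 0.614. All 4 values were under 1 FPKM, the mean that a gene needed to enter the fit, so HAL7 was not tested. From 12902 to 12974 genes per library reached 1 FPKM, and depth, read from the steps of low values relative to control replicate 0, was 1.77 and 1.58 in knockdown replicates 0 and 1, and 1 and 2.11 in control replicates 0 and 1. Of 11 pre-B and B cell markers, 11 were above the filter of a mean of 1 FPKM, and the list summed to 4190 and 4251 FPKM in knockdown libraries, against 4362 and 4301 FPKM in control libraries. Of 11 monocyte and macrophage markers, 2 were above that filter, CSF1R and CD68. CSF1R averaged 35.9 FPKM in knockdown and 35.6 FPKM in control libraries. CD68 averaged 2.21 FPKM in knockdown and 2.97 FPKM in control libraries. The monocyte markers S100A8 and S100A9 were listed at 0 in all 4 libraries.

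The metallothionein members lie together in 76.0 kb of chromosome 16 (GRCh38, from 56608199 to 56684196, GENCODE 29). Their coding sequences are alike, while protein sequences were not compared. Each representative coding sequence held 20 cysteine codons, in 61 codons before the stop or, for MT1G, 62. Identity between pairs of coding sequences ran from 88.7% for MT1F and MT1X to 93.7% for MT1G and MT2A. The coding strands of MT1X, the most abundant member, MT1G, the member furthest from a ratio of 1 among those above the filter, and MT2A are shown 5′ to 3′ from GENCODE 29, with the cysteine codons in capitals.
MT1X: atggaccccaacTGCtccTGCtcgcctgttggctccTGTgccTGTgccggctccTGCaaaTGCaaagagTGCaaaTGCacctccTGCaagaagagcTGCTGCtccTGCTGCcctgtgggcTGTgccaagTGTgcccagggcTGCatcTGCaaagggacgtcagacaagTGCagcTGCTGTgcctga
MT1G: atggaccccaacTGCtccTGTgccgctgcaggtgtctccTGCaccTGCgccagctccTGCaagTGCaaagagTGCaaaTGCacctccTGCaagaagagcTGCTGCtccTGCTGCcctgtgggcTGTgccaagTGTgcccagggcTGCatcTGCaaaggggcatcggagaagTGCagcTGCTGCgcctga
MT2A: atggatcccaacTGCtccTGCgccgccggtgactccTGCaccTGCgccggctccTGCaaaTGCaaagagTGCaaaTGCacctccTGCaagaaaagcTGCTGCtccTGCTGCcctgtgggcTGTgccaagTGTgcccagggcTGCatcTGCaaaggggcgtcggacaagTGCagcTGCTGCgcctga
Such likeness bears on the counting. Of the 50-base words in the MT1G transcript, 20.2% also occur in transcripts of another gene, and most of these are in MT1X. The share was 20.4% for MT1H and 16.0% for MT1X after leaving out a non-coding gene that overlaps it, or 45.1% with it. MT1E, MT1F, MT1M and MT2A had shares of 5.34%, 3.59%, 7.05% and 4.88%. The sources used here do not say how reads that fit more than 1 gene were assigned, and the part of shared reads in the values of MT1G, MT1H and MT1X was not tested.

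Sequence before the start of transcription was available for 6 of the 10 genes (RefSeq, GRCh38.p14), 3 of them metallothioneins. The metal response element core was searched as TGCACNC and TGCGCNC on both strands in the 250 bases before each start, where neighbouring matches may overlap. MT2A had 7 matches, MT1H 8 and MT1X 4. Of 34943 such windows in the genome, 24.8% held at least 1 match and 0.369% held at least 4. The SLC30A1 window held 1 match, on the strand opposite the gene. MTF1 held none, and neither did either of the SLC39A10 windows. The windows with matches are shown 5′ to 3′ on the gene strand with the matched letters in capitals. They are chr16:56682220-56682469 (plus strand) for MT1X, chr16:56608334-56608583 (plus strand) for MT2A, chr16:56669564-56669813 (plus strand) for MT1H and chr1:211579162-211579411 (minus strand) for SLC30A1.
MT1X: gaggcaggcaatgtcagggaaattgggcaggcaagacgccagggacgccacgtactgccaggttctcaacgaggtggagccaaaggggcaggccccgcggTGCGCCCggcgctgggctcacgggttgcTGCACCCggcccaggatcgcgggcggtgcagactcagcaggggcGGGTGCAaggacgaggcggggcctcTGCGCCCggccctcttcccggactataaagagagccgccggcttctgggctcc
MT2A: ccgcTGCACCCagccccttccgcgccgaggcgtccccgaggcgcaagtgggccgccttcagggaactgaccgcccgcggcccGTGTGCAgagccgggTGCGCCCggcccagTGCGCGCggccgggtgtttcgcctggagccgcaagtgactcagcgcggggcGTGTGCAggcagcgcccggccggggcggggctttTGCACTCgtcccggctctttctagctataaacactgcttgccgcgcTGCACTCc
MT1H: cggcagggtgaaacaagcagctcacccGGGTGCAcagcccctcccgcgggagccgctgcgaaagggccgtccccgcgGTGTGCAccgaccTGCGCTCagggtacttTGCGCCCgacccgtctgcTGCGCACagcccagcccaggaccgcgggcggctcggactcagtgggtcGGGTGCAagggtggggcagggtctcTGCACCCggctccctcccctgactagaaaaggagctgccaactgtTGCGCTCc
SLC30A1: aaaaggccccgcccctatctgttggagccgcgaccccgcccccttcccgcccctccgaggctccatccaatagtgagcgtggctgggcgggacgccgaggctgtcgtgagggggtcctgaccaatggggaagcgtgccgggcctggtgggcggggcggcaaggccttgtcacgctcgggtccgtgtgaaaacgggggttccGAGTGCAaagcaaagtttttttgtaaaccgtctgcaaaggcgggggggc
Matches on the strand opposite the gene appear as reverse complements, such as GGGTGCA in the MT1X window. A match describes letters only, and binding was not measured.

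**Figure D1:**
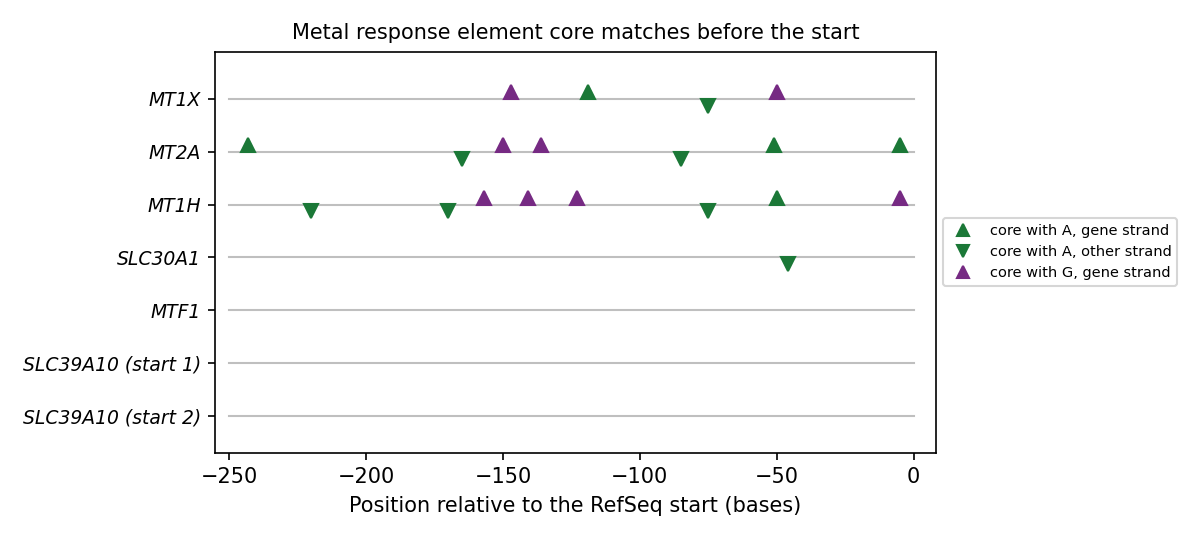
Matches to the metal response element core in the 250 bases before the RefSeq start of 6 genes (x axis, bases from the start; SLC39A10 has windows for both of its starts). Triangles pointing up are on the gene strand and those pointing down on the other strand, green for TGCACNC and purple for TGCGCNC; MT2A, MT1H and MT1X have 7, 8 and 4 matches and SLC30A1 has 1.

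By level, MT1X came first among the 10 members. MT1X dominated the metallothionein transcripts, with 231 and 207 FPKM in knockdown replicates 0 and 1, against 275 and 273 FPKM in control replicates 0 and 1. Both knockdown libraries lay below both control libraries, and the control libraries were close to each other. Mean levels of MT1X were 219 ± 17.1 FPKM in knockdown and 274 ± 1.20 FPKM in control libraries (SD, n = 2 each), a ratio of 0.800 and a log2 change of -0.32 on the log2(FPKM + 1) scale. This gene alone made up 95.5% and 95.3% of the summed FPKM of the 7 metallothioneins in knockdown libraries, and 94.5% and 95.1% in control libraries. The sum was 230 ± 17.5 FPKM in knockdown and 289 ± 2.46 FPKM in control libraries (SD, n = 2 each), a ratio of 0.795. The sum of the other 6 had a ratio of 0.703.

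MT1G had the lowest ratio among the members above the filter. Its level was 2.79 and 3.27 FPKM in knockdown replicates 0 and 1, against 5.79 and 5.32 FPKM in control replicates 0 and 1. The distance between the groups was several times the distance within either. Means for MT1G were 3.03 ± 0.334 FPKM in knockdown and 5.56 ± 0.334 FPKM in control libraries (SD, n = 2 each), a ratio of 0.545 and a log2 change of -0.70. MT1G is the only metallothionein member on the minus strand and lies between MT1F and MT1H.

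MT2A, often the most abundant metallothionein in human cells, was low here, with 2.59 and 2.27 FPKM in knockdown libraries, against 3.06 and 3.38 FPKM in control libraries. The groups did not overlap. Means for MT2A were 2.43 ± 0.230 FPKM in knockdown and 3.22 ± 0.230 FPKM in control libraries (SD, n = 2 each), a ratio of 0.755. MT1F stood at 4.70 and 4.16 FPKM in knockdown replicates 0 and 1, against 6.45 and 4.96 FPKM in control replicates 0 and 1. For MT1F the groups were apart by less than the control libraries were from each other. Its means were 4.43 ± 0.383 FPKM in knockdown and 5.71 ± 1.05 FPKM in control libraries (SD, n = 2 each), a ratio of 0.777. The log2 change of MT1F was -0.30 from all libraries, -0.14 without control replicate 0 and -0.46 without control replicate 1.

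The remaining metallothionein members were at the low end. MT1H stood at 0.761 and 0.561 FPKM in knockdown libraries, against 0.597 and 0.485 FPKM in control libraries. These ranges overlapped, and over the full length of its transcript the values stand for about 32.4 and 21.3 fragments in knockdown and 14.3 and 24.6 fragments in control libraries. MT1E was listed at 0.0342 and 0 FPKM in knockdown libraries, against 0.0303 and 0 FPKM in control libraries, which is under 3 fragments in each library. MT1M was listed at 0 in all 4 libraries. A value of 0 can be a failed estimate in this table and is described only as listed at 0.

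**Figure D2:**
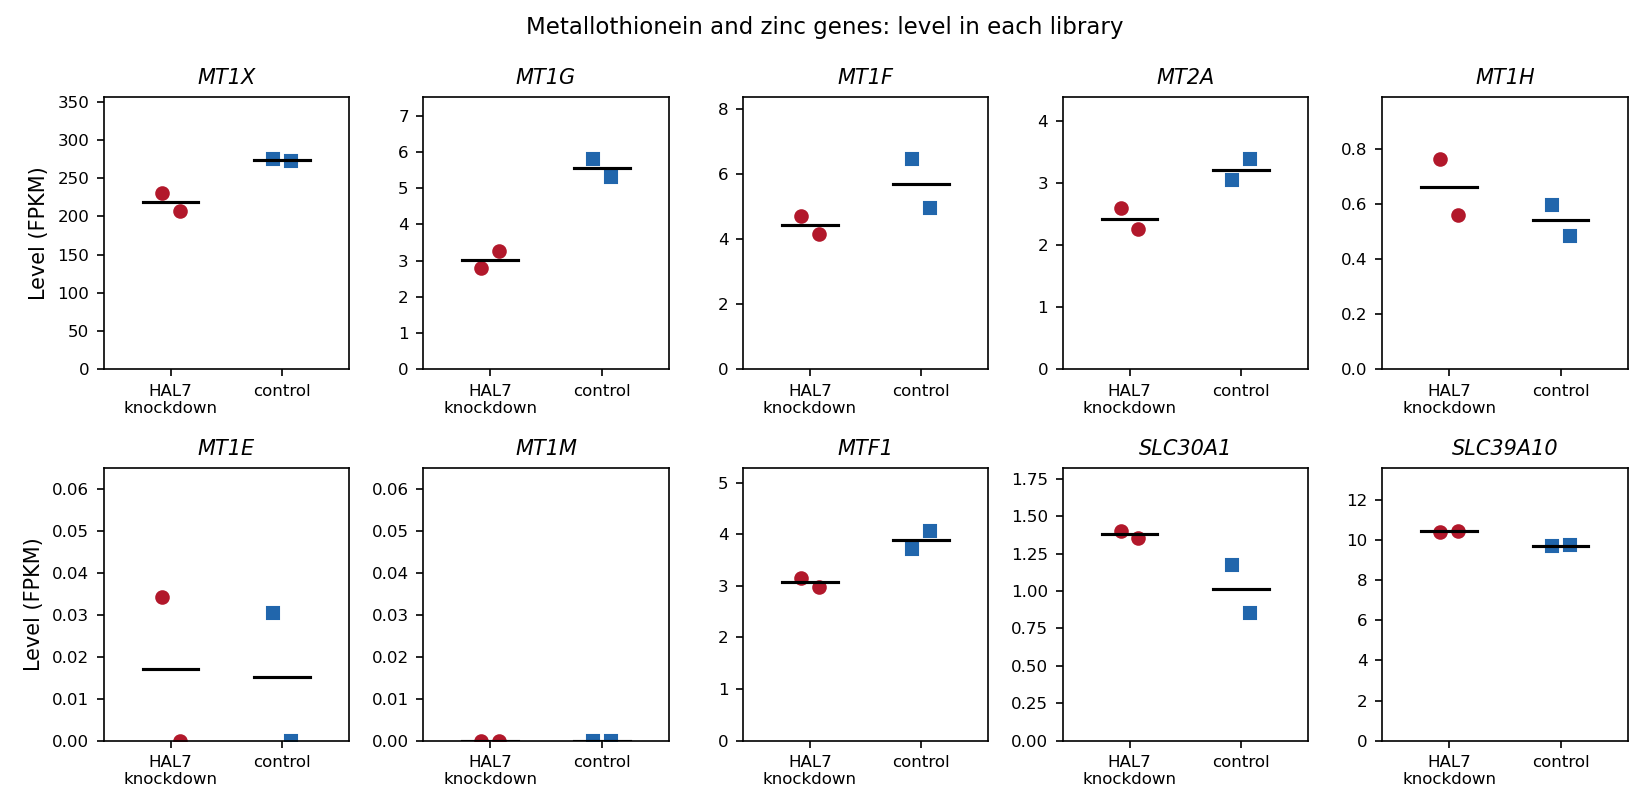
Level (y axis, FPKM, a separate linear scale from 0 for each gene) of the 10 genes in each library, with HAL7 knockdown in red and control in blue and a bar at each group mean. For MT1X, MT1G, MT1F, MT2A and MTF1 the red points all lie under the blue ones, while for SLC30A1 and SLC39A10 they all lie above; MT1H and MT1E overlap and MT1M is listed at 0.

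MTF1, the regulator, was lower in knockdown libraries, as were MT1X, MT1G, MT1F and MT2A. By mean, MT1E, MT1H, SLC30A1 and SLC39A10 were higher. MTF1 had 3.15 and 2.98 FPKM in knockdown libraries, against 3.72 and 4.07 FPKM in control libraries. The groups did not overlap, and means were 3.07 ± 0.120 FPKM in knockdown and 3.89 ± 0.250 FPKM in control libraries (SD, n = 2 each), a ratio of 0.788 and a log2 change of -0.27. MTF1 (minus strand of chromosome 1) has no metal response element core in its own window.

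The exporter gene SLC30A1 was on the higher side. SLC30A1 moves zinc out of the cytosol across the plasma membrane. Its level was 1.40 and 1.36 FPKM in knockdown replicates 0 and 1, against 1.18 and 0.854 FPKM in control replicates 0 and 1. The knockdown libraries were close to each other and above both control libraries, and the control libraries were further from each other than the nearer of them was from the knockdown libraries. Means for SLC30A1 were 1.38 ± 0.0346 FPKM in knockdown and 1.01 ± 0.227 FPKM in control libraries (SD, n = 2 each), a ratio of 1.36 and a log2 change of 0.24. The log2 change was 0.36 without control replicate 0 and 0.13 without control replicate 1.

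SLC39A10 brings zinc into the cytosol, and in mouse its gene is repressed by MTF1. It had 10.4 and 10.5 FPKM in knockdown libraries, against 9.74 and 9.75 FPKM in control libraries. Replicates were close together in both groups, so the groups did not overlap although the ratio of means was 1.07, with means of 10.5 ± 0.0484 FPKM in knockdown and 9.74 ± 0.00953 FPKM in control libraries (SD, n = 2 each). Its log2 change of 0.09 was 0.029 after the trend with GC content was removed, a setting added after seeing the data.

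Across the members, the order by mean FPKM over the 4 libraries was MT1X at 246, SLC39A10 at 10.1, MT1F at 5.07, MT1G at 4.29, MTF1 at 3.48, MT2A at 2.83, SLC30A1 at 1.20, MT1H at 0.601 and MT1E at 0.0161, with MT1M at 0. Neighbours from MT1F to MT2A in that order had overlapping ranges over the libraries, while MT1X, SLC39A10, SLC30A1 and MT1H each stood clear of their neighbours. Levels of such short transcripts in FPKM also depend on the transcript lengths the authors used, which the sources used here do not give. Of the 10 members, 7 had a mean of at least 1 FPKM and entered the fit over all genes. By mean level, 5 members were lower and 4 higher in knockdown libraries, while 53.0% of the 12934 genes tested had a lower mean. That share covers only genes above the filter, and MT1E and MT1H, among the higher members, were under it. The groups did not overlap in 5 lower and 2 higher members, which compares with 27.7% of the genes tested on the lower side and 22.5% on the higher side. In limma's fit over all genes, 0 of the 7 passed an adjusted p of 0.05, as did 0.0309% of all genes, or 0.0232% on the lower and 0.00773% on the higher side. At an unadjusted p under 0.05 limma gave 5 lower and 0 higher members, against 9.36% of all genes on the lower and 7.25% on the higher side. Nothing is read from these counts, because the members were chosen with these values known.

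GC content moved with the changes. Over 12498 genes tested, the log2 change and the GC content of the longest transcript had a Spearman rho of -0.41, a description across genes that share the same libraries. The median log2 change was 0.06 in the quintile of genes lowest in GC content and -0.08 in the highest. MT1G, MT1X and MT2A, with 56.7%, 53.7% and 53.9% GC, lay in the quintile next to the highest, whose median was -0.04, and MT1F, with 58.2%, lay at the lower edge of the highest. SLC30A1 and SLC39A10, with 38.0% and 37.6% GC, lay in the lowest quintile. With the GC trend removed, the log2 changes were -0.65 for MT1G, -0.29 for MT1X, -0.26 for MT2A, -0.24 for MT1F, -0.27 for MTF1 and 0.18 for SLC30A1. The part of GC content in the members' values beyond this was not tested.

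Along the chromosome, the further metallothionein genes between and beside the members were also listed at 0. MT1A, MT1B, MT3, MT4 and the pseudogenes MT1JP and MT1DP in the cluster, and MT1HL1 elsewhere, were listed at 0 in all 4 libraries, so 7 of 7 further metallothionein genes in the table were at 0. The abundant gene MT1X lies at the far end of the cluster from MT2A. Of genes within 250 kb of the cluster, 6 that are not metallothioneins were tested, and 0 passed the adjusted threshold in limma. A single one, 1 of 6, had an unadjusted limma p under 0.05, against 16.6% of all genes tested. That gene was NUDT21, a subunit gene of the mRNA cleavage factor, at 45.8 and 43.8 FPKM in knockdown libraries, against 39.7 and 33.5 FPKM in control libraries. It had a limma adjusted p of 0.21. NUP93, a nuclear pore gene and the nearest at 45.9 kb, had a ratio of 1.02, and BBS2, on the other side at 87.9 kb, had a ratio of 0.915. OGFOD1 and HERPUD1 had ratios of 1.04 and 1.02.

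**Figure D3:**
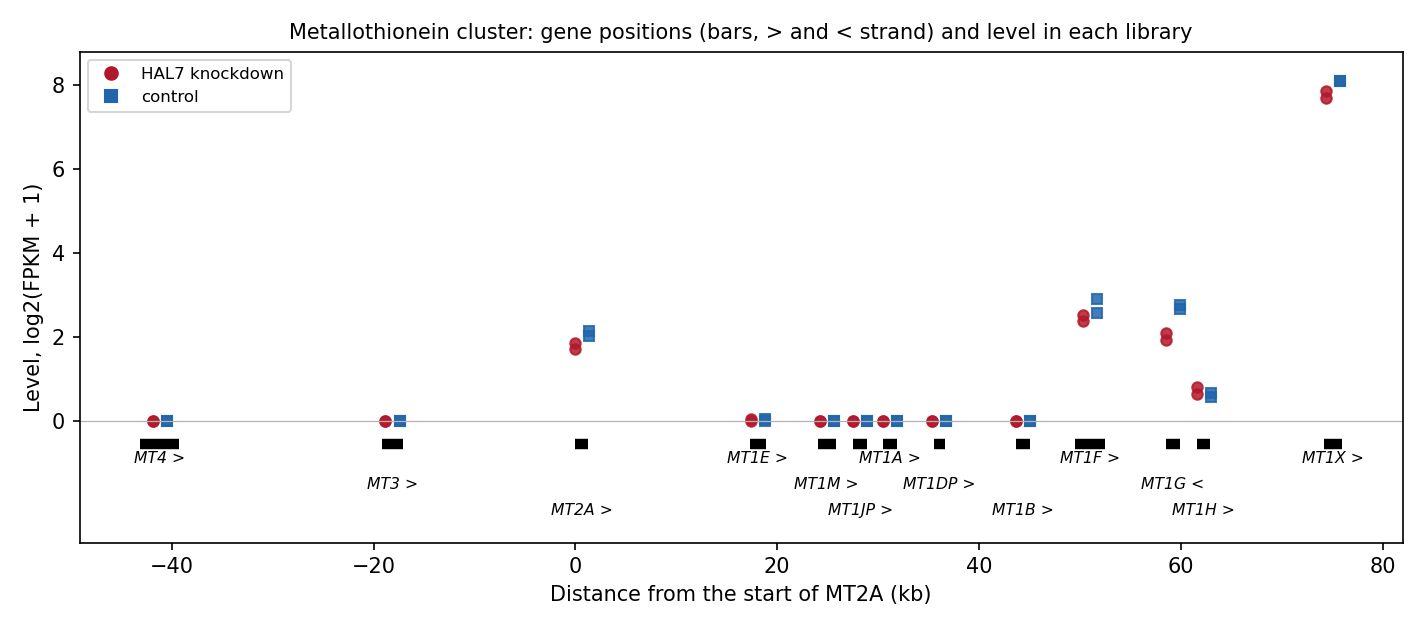
Metallothionein cluster on chromosome 16, with gene bodies as black bars against distance from the start of MT2A (x axis, kb; arrows give the strand) and the level in each library on the log2(FPKM + 1) scale (y axis; red for HAL7 knockdown, blue for control). MT1X stands far above the rest at 207 to 275 FPKM, MT1F, MT1G and MT2A are between 2.27 and 6.45 FPKM, and the other genes shown, apart from MT1H and a trace of MT1E, are listed at 0.

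Other zinc transporter genes above the filter lay on both sides of a ratio of 1, from 0.866 for SLC30A5 to 1.13 for SLC39A8. Of 22 further SLC30 and SLC39 genes, 14 were tested and 0 passed the limma threshold, with adjusted p from 0.25 to 0.92. Unadjusted, 2 lower and 1 higher had a limma p under 0.05, 21.4% of those tested, against 16.6% of all genes. The median log2 change of the 14 was -0.03, against -0.0090 over all genes tested. Among exporters, SLC30A5, which loads zinc into the early secretory pathway, stood at 6.02 and 6.09 FPKM in knockdown libraries, against 7.14 and 6.85 FPKM in control libraries, with a log2 change of -0.18 ± 0.06 (SE). SLC30A9, a mitochondrial zinc exporter, had 21.1 and 20.1 FPKM in knockdown libraries, against 18.6 and 18.4 FPKM in control libraries, with a log2 change of 0.15 ± 0.06 (SE). SLC30A6, which pairs with SLC30A5, and SLC30A7 had ratios of 1.07 and 0.972. SLC30A5 and SLC30A9 had limma adjusted p of 0.25 and 0.26.

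Among importers, SLC39A14 and SLC39A6 were the most abundant. SLC39A14, which also carries iron and manganese, had 40.8 and 46.8 FPKM in knockdown libraries, against 43.0 and 40.3 FPKM in control libraries, and the groups overlapped. SLC39A6 had 35.7 and 34.9 FPKM in knockdown libraries, against 32.8 and 33.2 FPKM in control libraries. SLC39A6, which pairs with SLC39A10 in mouse cells, had a ratio of 1.07. SLC39A8 and SLC39A9 had ratios of 1.13 and 1.10. On the lower side, SLC39A13, SLC39A11, SLC39A1 and SLC39A7, the last a zinc release channel of the endoplasmic reticulum, had ratios of 0.891, 0.913, 0.922 and 0.926. SLC39A3 overlapped between the groups, with a log2 change of -0.15 from all libraries and 0.020 without knockdown replicate 0. SLC39A4, the intestinal importer mutated in acrodermatitis enteropathica, had a ratio of 0.986 with overlapping groups.

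**Figure D4:**
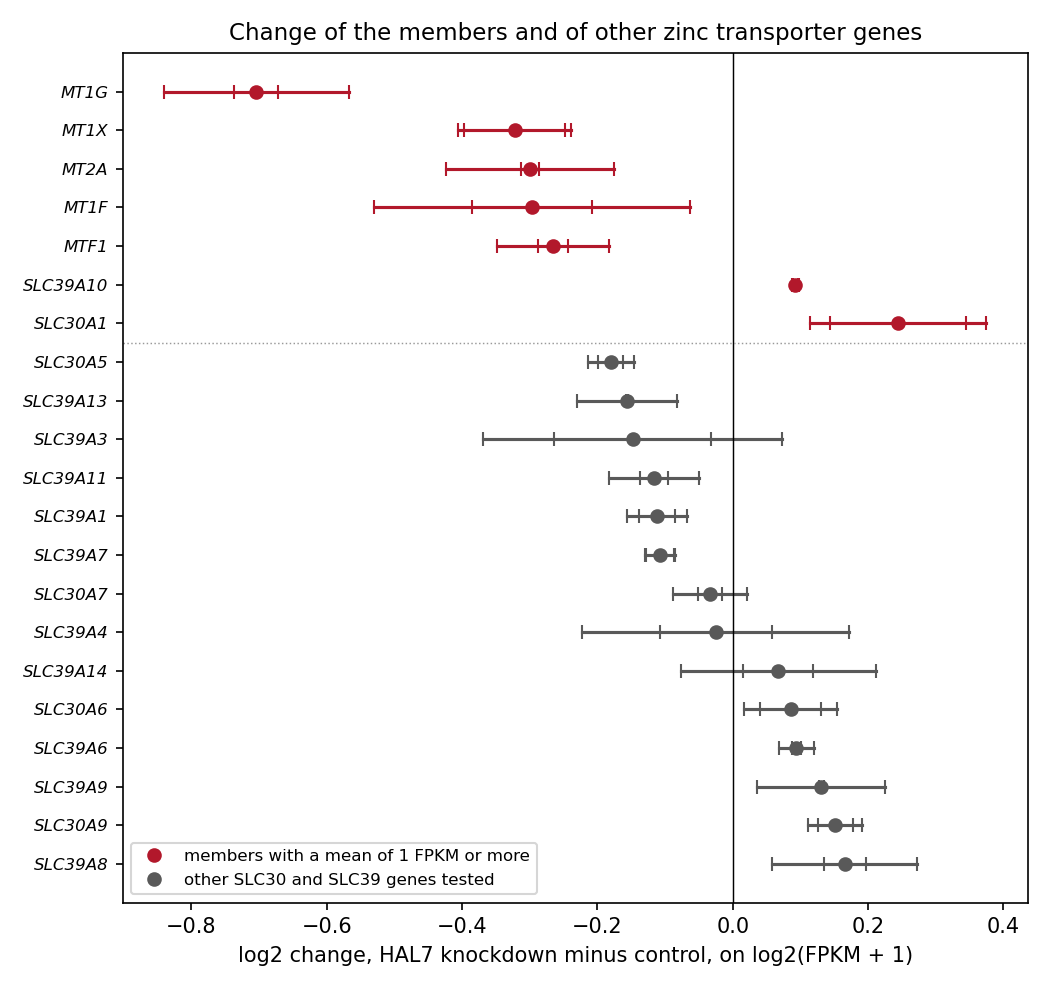
Log2 change of HAL7 knockdown over control on the log2(FPKM + 1) scale (x axis) for the 7 members with a mean of 1 FPKM or more (red) and 14 other zinc transporter genes (grey). Dots are differences of group means, ticks the differences of each pair of a knockdown and a control library, and lines their range; MT1G is at -0.70 and the other transporter genes lie between -0.18 and 0.17.

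Genes of related metal and stress responses were counted as a background to the members. Over all 8 lists, which include the zinc transporters above, 55 genes were tested and limma called 0. Unadjusted, 7 lower and 3 higher had a p under 0.05, 18.2% of those tested, against 16.6% of all genes. In the copper list, with 9 tested, SOD1 and ATOX1, a superoxide dismutase and a copper chaperone gene, had ratios of 1.04 and 1.02. ATP7A, a copper exporter gene named after its values were seen, stood at 3.62 and 3.32 FPKM in knockdown libraries, against 4.45 and 4.73 FPKM in control libraries. COX11, a copper chaperone gene of cytochrome oxidase named in the same way, lay on the other side, at 10.4 ± 0.448 FPKM in knockdown and 8.89 ± 0.974 FPKM in control libraries (SD, n = 2 each). Adjusted p in limma was 0.19 for ATP7A and 0.30 for COX11. Among 11 iron genes tested, the ferritin subunit genes FTL and FTH1 had ratios of 0.897 and 0.891, with limma adjusted p of 0.28 and 0.24.

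Targets of NRF2, the oxidative stress factor that metals can activate, had 8 tested genes, with PRDX1 and TXN at ratios of 1.12 and 1.02. HMOX1, which cadmium and haem induce and which was named after its values were seen, was under the filter, at 0.474 and 0.325 FPKM in knockdown libraries and 0.508 and 0.374 FPKM in control libraries. Heat shock response genes had 6 tested, with HSPB1 and HSF1 at ratios of 0.885 and 0.959. Glucocorticoids also induce metallothionein genes. In that list, with 7 tested, the receptor gene NR3C1 and DUSP1 had ratios of 0.876 and 0.939. TSC22D3, a glucocorticoid-induced gene named after its values were seen, had 20.6 and 22.0 FPKM in knockdown libraries, against 16.6 and 16.7 FPKM in control libraries, with a log2 change of 0.34 ± 0.06 (SE). SGK1, another glucocorticoid-induced gene named after its values were seen, lay on the other side, at 5.39 ± 0.546 FPKM in knockdown and 6.74 ± 0.344 FPKM in control libraries (SD, n = 2 each). Adjusted p in limma was 0.19 for TSC22D3 and 0.22 for SGK1. FKBP5, KLF9 and PER1, induced by glucocorticoids and named after their values were seen, overlapped between the groups, with ratios of 1.04, 1.05 and 0.988.

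Markers of other cell types were also summed, since metallothionein levels differ between cell types and fewer cells of a type cannot be told apart from less RNA per cell in bulk samples. Of 11 monocyte and macrophage markers 2 were tested, CSF1R and CD68, and the summed level of the list was 37.0 and 40.6 FPKM in knockdown libraries, against 40.0 and 39.1 FPKM in control libraries. CSF1R, which made up most of it, had a ratio of 1.01 and overlapped between the groups. CD68 averaged 2.21 ± 0.305 FPKM in knockdown and 2.97 ± 0.336 FPKM in control libraries (SD, n = 2 each), with a limma adjusted p of 0.24. Of 7 T and NK cell markers only NKG7 was tested, and the list's sum was 22.0 and 17.2 FPKM in knockdown libraries, against 27.6 and 27.2 FPKM in control libraries, with CD3D, CD3G and CD2 listed at 0. NKG7 had a limma adjusted p of 0.19. Of 3 fibroblast markers 2 were tested, with sums of 48.4 and 56.3 FPKM in knockdown libraries and of 54.8 and 56.7 FPKM in control libraries, mostly from PDGFRB. COL1A1, a collagen gene, had a ratio of 0.737 and an adjusted p of 0.24 in limma. Erythroid and epithelial marker lists summed to less than 1 FPKM in each library. All 4 libraries are labelled as the BLaER1 line, so transcripts of a marker need not mean that cells of that type were present. How CD68, NKG7 and COL1A1 relate to the metallothionein values was not tested.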

How the data were processed

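The deposited table gives 1 value per library for each Ensembl gene ID. The authors' values were read as FPKM, since the ID column carries the name that Cuffdiff writes and the values are not whole. Bowtie2 2.2.5, TopHat2 2.0.14, Cuffdiff 2.2.1 and the build hg19 are named in the submitters' processing notes; options and annotation are not stated there. The fit, limma 3.58.1 under R 4.3.3, took log2(FPKM + 1) with a variance trend, two-sided, for the 12934 genes whose mean reached 1 FPKM, with Benjamini-Hochberg adjustment at 0.05; the procedure was tested on simulated data. An exact permutation test of 2 against 2 cannot go below a p of 0.333. Members and lists were chosen with earlier results of these data known. The text names all members, every tested SLC30 and SLC39 gene and metallothionein, the nearest tested neighbours (1 of the 6 is not reported here), and in each other list the 2 most abundant genes and any gene past the threshold; others are marked, apart from cell type markers, some of which were named after their values were seen. Transcripts and positions, apart from the RefSeq windows, came from GENCODE 29 on GRCh38, not the authors' build. Gene names came from a separate reference list of symbols for Ensembl IDs, or from GENCODE 29 where that list had none. Depth was estimated from the steps of FPKM times length in 1214 single-transcript genes of at least 2500 nt, where 79.1% to 83.3% of low values lay within 0.15 of a whole multiple (30% by chance). Coding sequences were aligned with Biopython 1.88. Alternatives were pseudocounts of 0.1 and 5, other filters, quantile and median scaling, a replicate block, leaving out each library and, added later, removal of the GC trend.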

Additional observations from a re-analysis of the deposited data

How the results depend on the processing

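With 2 libraries a group and depth unlike between libraries, small ratios rest on few values. The members MT1X, MT1G, MT1F, MT2A, MTF1, SLC30A1, SLC39A10 and MT1H kept their direction under every alternative run for them; MT1E, near 0, did not, and MT1M was at 0. Without single libraries the number of lower members was 5 to 6 and the summed metallothionein ratio 0.752 to 0.838. Log2 changes depend on the pseudocount by construction, more so at low levels. Those of MT1G, MT2A, MTF1 and SLC30A1 were -0.86, -0.39, -0.33 and 0.42 with 0.1, and -0.40, -0.15, -0.14 and 0.085 with 5. From 0.1 to 5, MT1F went from -0.35 to -0.18, MT1H from 0.24 to 0.031 and SLC39A10 from 0.10 to 0.068. The 4 genes called over all genes became 2 with a pseudocount of 0.1, 0 with no filter, 1 with a mean of at least 5 FPKM, 11 to 26 without single libraries and 2148 at an unadjusted p. The list genes called were 0 under every alternative except the unadjusted p, with 10. Among other transporter genes, none of them called, 4 changed sign. SLC39A4 was at 0.016 with the GC trend removed. Without single libraries SLC39A4 ran from -0.16 to 0.11, SLC39A3 from -0.32 to 0.020, SLC30A7 from -0.069 to 0.0025 and SLC39A14 from -0.030 to 0.16. The causes were not tested.

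The labels do not say whether same-numbered libraries share more than a number. Their deviations correlated at 0.12 over genes, and with the replicate number as a block 19 genes were called, 0 of them in the lists.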
